A study of Mus musculus with 12 samples.

Results

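The genes described here are 10 immediate early genes, Fos, Fosb, Jun, Junb, Jund, Egr1, Atf3, Ier2, Dusp1 and Nr4a1. They were chosen by name and matched by symbol to Ensembl mouse identifiers, and all 10 were found in both count tables, among 32783 genes listed in at least one of them. RNA sequencing was carried out on cells sorted with magnetic beads from the hippocampus of male wild-type C57Bl6/J mice, with 12 libraries in all. Mice had received at 2 months of age a bilateral CA1 injection of AAV2/9 carrying, under the GfaABC1D promoter that is selective for astrocytes, either the murine A2A adenosine receptor (AAV-A2A) or GFP as control (AAV-GFP), and cells were taken 2 months later. Cells bound by beads against ACSA-2, a surface antigen of astrocytes, gave 3 AAV-GFP libraries (GFP-303, GFP-306, GFP-307) and 3 AAV-A2A libraries (A2A-309, A2A-310, A2A-313). Cells left over by that step and then bound by beads against CD11b, a surface protein of microglia and other myeloid cells, gave 3 AAV-GFP libraries (GFP-2328, GFP-2329, GFP-2331) and 3 AAV-A2A libraries (A2A-2343, A2A-2344, A2A-2347). Every sample thus shared surgery, a vector, a warm enzymatic digestion and mechanical dissociation before sorting, and there was no sample of undissociated tissue or of uninjected mice among those used here. The labels do not say which libraries came from the same animal.

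Immediate early genes are transcribed within minutes of a stimulus without the need for new protein, because the factors that switch them on, chiefly CREB and the SRF complex, are already present and are activated by cAMP, calcium and MAP kinase signals. Their transcripts are short-lived, so that their level reports recent signalling, such as neuronal firing, growth factors or stress. They are also known to be induced in glia, and in microglia in particular, while tissue is dissociated with enzymes at body temperature, so that in sorted cells a response in the animal and a response to isolation enter the same measurement.

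The 10 proteins fall into a few kinds. FOS and FOSB pair with the JUN proteins to form the AP-1 transcription factor, in which JUN, JUNB and JUND are the Jun partner. ATF3 is a stress-induced member of the ATF/CREB family, EGR1 is a zinc finger transcription factor, NR4A1 is an orphan nuclear receptor, IER2 is a small nuclear protein, and DUSP1 is a phosphatase that inactivates MAP kinases and so limits the signal that induced it. Promoters of such genes often hold the cAMP response element (CRE), the site bound by CREB, whose core reads TGACG, or CGTCA on the other strand. RefSeq promoters of the GRCm38.p6 assembly were searched for 8 of the 10 genes. Those of Egr1 and Ier2 were not among them and are not shown. In the 250 bases before the start site, 6 of these 8 (Fos, Fosb, Junb, Atf3, Dusp1 and Nr4a1) held a CRE core on either strand, as did 17.8% of the 32851 mouse promoters of the same length. The windows of 3 genes are printed here, in the direction of transcription and with each core in capitals, because among the 10 genes Dusp1 varied most like Fos between replicates and Nr4a1 stood apart. They are the 250 bases before the RefSeq start of Fos (chr12:85473640-85473889, plus strand), Dusp1 (chr17:26508473-26508722, minus strand) and Nr4a1 (chr15:101266596-101266845, plus strand).
Fos: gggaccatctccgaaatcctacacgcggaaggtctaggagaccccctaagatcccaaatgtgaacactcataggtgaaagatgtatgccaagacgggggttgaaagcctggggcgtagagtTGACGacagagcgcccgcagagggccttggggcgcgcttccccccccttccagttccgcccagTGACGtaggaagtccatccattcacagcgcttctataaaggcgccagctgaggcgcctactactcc
Dusp1: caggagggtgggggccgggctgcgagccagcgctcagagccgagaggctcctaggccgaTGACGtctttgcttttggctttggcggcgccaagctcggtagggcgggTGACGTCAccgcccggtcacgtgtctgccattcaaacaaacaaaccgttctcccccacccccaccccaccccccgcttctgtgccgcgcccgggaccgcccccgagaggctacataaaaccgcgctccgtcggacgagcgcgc
Nr4a1: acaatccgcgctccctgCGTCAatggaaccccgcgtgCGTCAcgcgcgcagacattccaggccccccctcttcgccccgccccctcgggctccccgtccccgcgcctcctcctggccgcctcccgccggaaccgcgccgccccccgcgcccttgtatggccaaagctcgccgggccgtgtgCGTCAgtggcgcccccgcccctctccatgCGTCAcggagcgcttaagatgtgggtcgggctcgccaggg

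The Fos window held CRE cores that began 129 and 66 bases before the start, and also a TATAAA box in the direction of transcription, at 33 bases, which 7.59% of all promoters held. In Dusp1 the CRE cores at 143 and 140 bases before the start overlap and together spell the full element TGACGTCA, present in 1.55% of all promoters, and a further core lay at 191 bases. Nr4a1 had 4 CRE cores, the nearest at 40 bases. No window of the 8 held an AP-1 site (TGANTCA, searched on both strands and present in 6.75% of all promoters) or a CArG box, the SRF site (present in 1.47%), which says only that these letters are not in these windows. The Jund window lies before a RefSeq start upstream of the start used for its counts. For Dusp1, Atf3 and Nr4a1 the RefSeq start lies downstream, inside the annotated gene. It is at 26508472 against 26562128 for Dusp1, 191183333 against 191218039 for Atf3 and 101266846 against 101254269 for Nr4a1. These matches are descriptions of sequence and were not measured in the cells.

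The fractions were checked against markers before the genes were compared. All 8 astrocyte markers of a fixed list were lower in the CD11b fraction and all 8 microglial markers higher, with a median log2 fold change (FC) of -6.17 and 5.67 in AAV-GFP controls. The targeted gene Adora2a was at 25, 23.2 and 25.6 CPM (counts scaled to a common library total, with TMM factors) in the ACSA-2 libraries of AAV-GFP mice and at 764, 655 and 926 CPM in those of AAV-A2A mice (log2 FC 5.02, SE 0.21, adjusted p = 1.55e-05 by edgeR). In the CD11b fraction it was at 3.77, 4.67 and 8.29 CPM in AAV-GFP and 18.6, 45.2 and 15.0 CPM in AAV-A2A libraries, without overlap but short of the threshold (log2 FC 2.20, adjusted p = 0.28). In 3 CD11b libraries, GFP-2328, GFP-2329 and A2A-2347, the 8 markers of choroid plexus and ependyma, led by Ttr, summed to 72955, 60772 and 29308 CPM, against 31.1 to 207 CPM in the other 3. The same 3 libraries had the least microglial marker RNA, 9185, 19194 and 23692 CPM, against 55585 to 72563 CPM. Total counts went from 33937067 to 49217553 per library in the ACSA-2 fraction and from 36098295 to 53206974 in the CD11b fraction, and the 10 genes had from 19 counts (Fosb in GFP-303) to 228945 counts (Fos in A2A-2343). These are bulk samples, in which fewer cells of a type and less RNA per cell cannot be told apart.

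The first comparison set the CD11b fraction against the ACSA-2 fraction. All 10 immediate early genes were higher in the CD11b fraction of AAV-GFP controls, by 3.78-fold (Jund) to 48.4-fold (Fosb), with a median log2 FC of 4.37 against 0.13 over all 18995 genes tested. All 10 passed the threshold (adjusted p under 0.05 and a log2 FC beyond 0.32 by edgeR), where 15.2% of all tested genes were called higher in CD11b. Together the 10 genes took 1.48 to 2.5% of all counts in the CD11b libraries and 0.08 to 0.137% in the ACSA-2 libraries. In every CD11b library 6 or 7 of them were among the 100 genes with the most counts, and in the ACSA-2 libraries 0 were. In the AAV-GFP controls alone all 10 were higher in CD11b without overlap, as were 24.8% of all tested genes. The 6 CD11b and the 6 ACSA-2 libraries did not overlap for any of the 10 either. For those larger groups the share over all genes was not computed.

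**Figure D1:**
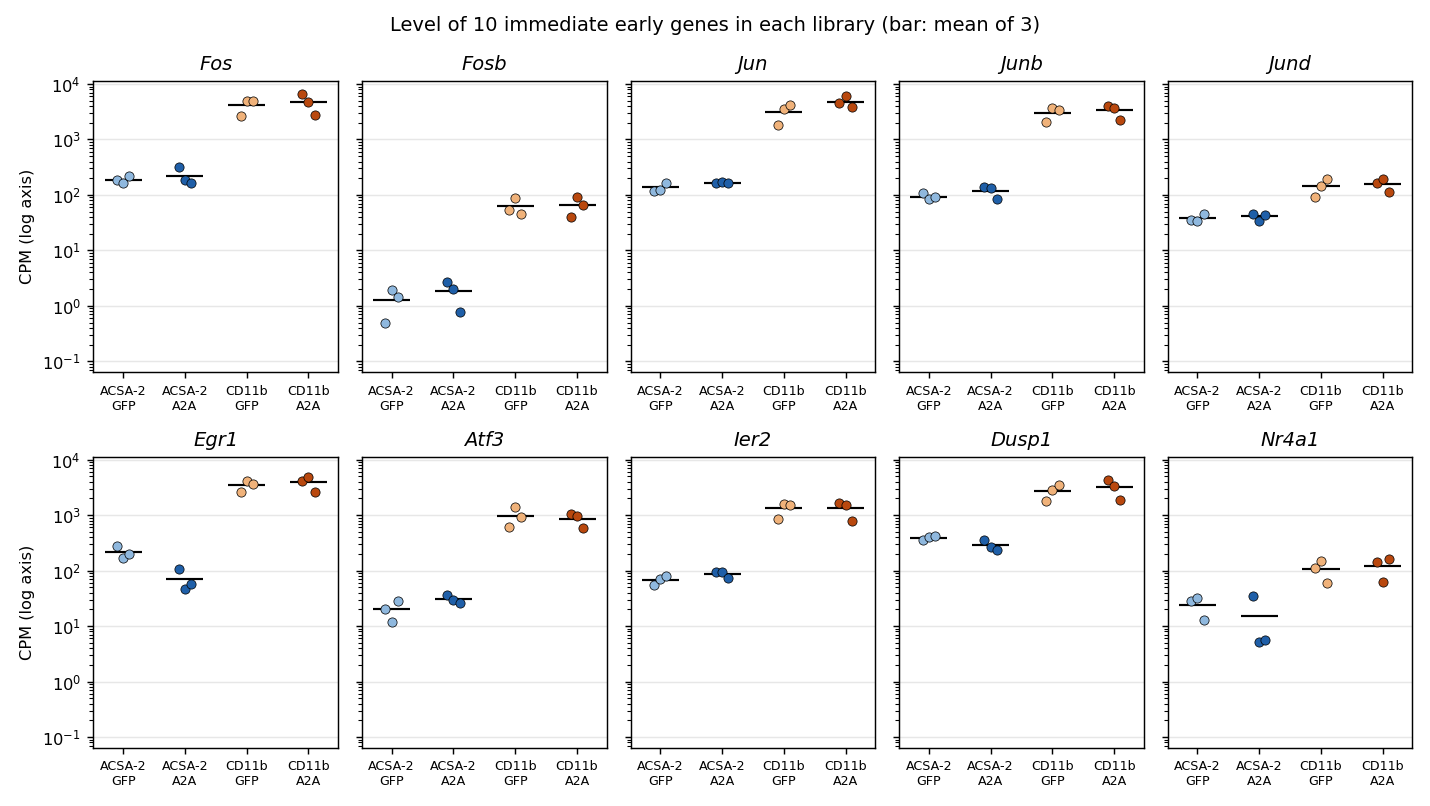
Level of the 10 immediate early genes in each library, in CPM on a log axis, with 1 panel per gene, 1 point per library and a bar at the mean of the 3 libraries of each fraction and vector. In each panel the 6 CD11b libraries lie above the 6 ACSA-2 libraries, and in the ACSA-2 fraction Egr1 is lower with AAV-A2A.

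Of the Fos pair, Fos was at 188, 163 and 216 CPM in the ACSA-2 libraries of AAV-GFP mice and at 2633, 4850 and 4963 CPM in the CD11b libraries (22.0-fold, log2 FC 4.46, SE 0.47, adjusted p = 9.13e-05). Fosb was near the lower limit of measurement in the ACSA-2 fraction, with 0.485, 1.95 and 1.44 CPM, and reached 53.4, 88.6 and 45.2 CPM in the CD11b fraction (log2 FC 5.60, SE 0.66, adjusted p = 0.000182). Both genes were thus separated by fraction in each library, and Fosb remained the scarcer of the pair in both.

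Among the Jun genes, Junb rose the most, from 108, 82.8 and 89.9 CPM in ACSA-2 to 2053, 3653 and 3335 CPM in CD11b (32.2-fold, log2 FC 5.01, SE 0.42, adjusted p = 1.8e-05). Jun went from 119, 125 and 165 CPM to 1849, 3591 and 4112 CPM (23.4-fold, log2 FC 4.55, SE 0.40, adjusted p = 2.51e-05). Jund, the Jun gene known for its steadier level in resting cells, differed the least of the 10, with 35.7, 33.2 and 44.4 CPM against 91.2, 145 and 193 CPM (log2 FC 1.92, SE 0.32, adjusted p = 0.00134). Its count is uncertain, since 52.58% of its exon bases overlap the antisense gene Gm11175 and the strand setting of the counting was not given in the sources used here. For Junb and Jun such overlaps cover 7.52% and 7.28% of the exon bases.

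The stress-induced Atf3 was at 20, 11.8 and 28.8 CPM in ACSA-2 and at 605, 1411 and 909 CPM in CD11b libraries of AAV-GFP mice (48.2-fold, log2 FC 5.59, SE 0.48, adjusted p = 2.41e-05). Egr1 was at 280, 170 and 200 CPM against 2589, 4152 and 3656 CPM (16.0-fold, log2 FC 4.0, SE 0.44, adjusted p = 0.000124). Ier2 was at 54.5, 70.2 and 79.1 CPM against 863, 1615 and 1518 CPM (19.6-fold, log2 FC 4.29, SE 0.40, adjusted p = 3.92e-05). None of these 3 genes overlapped between the fractions, and Atf3 stood beside Fosb as one of the 2 widest differences.

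Dusp1 and Nr4a1 showed smaller differences. Dusp1, the MAP kinase phosphatase, was the most abundant of the 10 in the ACSA-2 fraction, at 359, 404 and 417 CPM, and was at 1812, 2849 and 3502 CPM in CD11b (6.91-fold, log2 FC 2.79, SE 0.39, adjusted p = 0.000531). Nr4a1 was at 28.2, 32.0 and 12.9 CPM against 111, 149 and 60.3 CPM (4.38-fold, log2 FC 2.13, SE 0.73, adjusted p = 0.048). The call for Nr4a1 was lost when any one of GFP-303, GFP-306, GFP-307, GFP-2328, GFP-2329, A2A-2343, A2A-2344 or A2A-2347 was left out (log2 FC 1.81 to 2.42 over the 12 such fits, adjusted p up to 0.13).

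**Figure D2:**
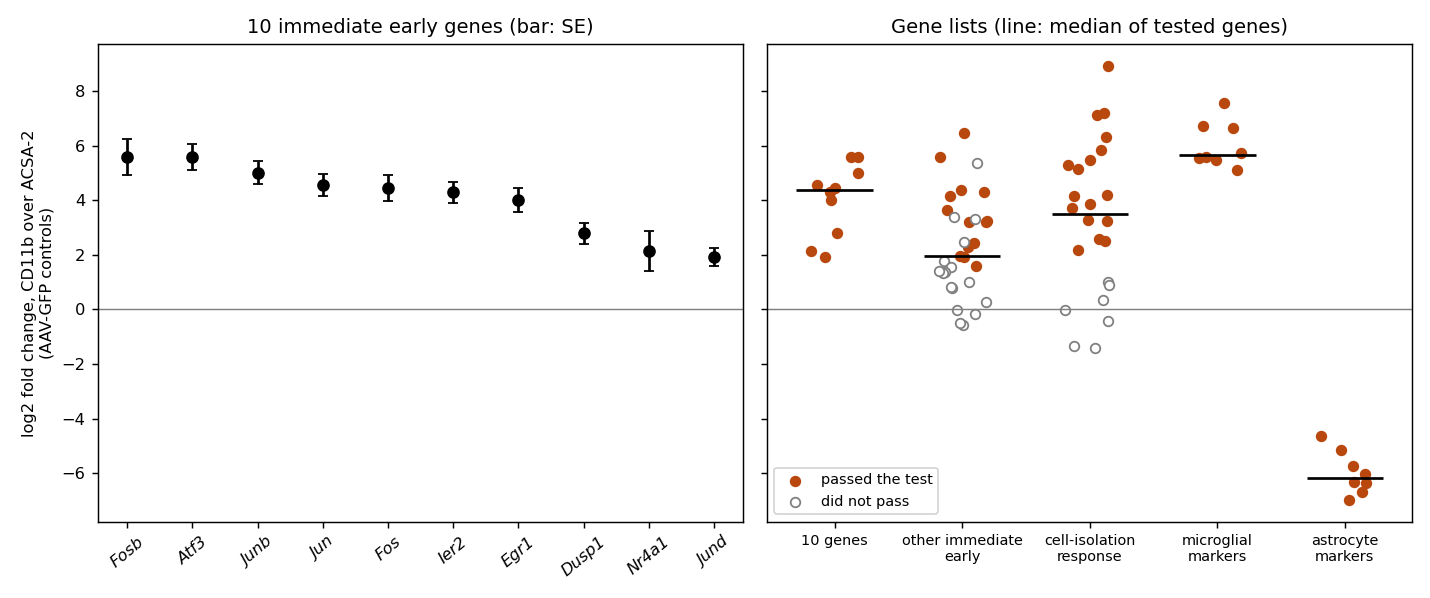
Log2 FC of the CD11b over the ACSA-2 fraction in AAV-GFP controls, on the left for the 10 genes with the SE as bar and on the right for each tested gene of 5 lists, filled where it passed the test, with a line at the list's median. The 10 genes lie between 1.92 and 5.60, and the 8 microglial markers between 5.13 and 7.57.

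Other fits gave the same picture for 9 of the 10 genes. Compared in the AAV-A2A libraries in place of the controls, all 10 passed, where 25.7% of all tested genes were called higher in CD11b, with log2 FC from 1.94 (Jund) to 5.80 (Egr1) and 2.97 for Nr4a1. Without the 3 choroid-rich CD11b libraries, which leaves GFP-2331 as the one CD11b control and takes its spread from the other groups, 9 passed, where 12.6% of all tested genes were called higher, with log2 FC from 2.38 (Jund) to 5.51 (Atf3), and Nr4a1 had 1.33 (adjusted p = 0.325). Fraction, order of sorting and count table coincide in this design and cannot be told apart.

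In the CD11b fraction the summed level of the 10 genes varied less between libraries than that of the microglial markers. Both sums were lowest in GFP-2328 and highest in A2A-2343, and how they go together was not tested. The 10 genes summed to 12659, 22504 and 15086 CPM in the choroid-rich libraries GFP-2328, GFP-2329 and A2A-2347, and 22293, 26462 and 25613 CPM in GFP-2331, A2A-2343 and A2A-2344. That is a 2.09-fold range, where the 8 microglial markers ranged 7.9-fold over the same libraries. In GFP-2328, with the least microglial RNA, Fos was at 2633 CPM, against 4963 CPM in GFP-2331, the control library with 68573 CPM of microglial markers. Jun, Junb, Jund, Egr1, Atf3, Ier2 and Dusp1 were likewise lower in GFP-2328 than in GFP-2331. Only Fosb (53.4 against 45.2 CPM) and Nr4a1 (111 against 60.3 CPM) were higher in GFP-2328. By gene, Jun, Jund and Dusp1 were lower in each choroid-rich library than in each of the other 3, the remaining 7 overlapped, while 17.5% of all 16949 genes tested in this fraction were likewise lower without overlap. Atf3 and Nr4a1 had their highest values in choroid-rich libraries (1411 CPM in GFP-2329 and 160 CPM in A2A-2347). The part of choroid plexus cells in these levels was not tested.

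**Figure D3:**
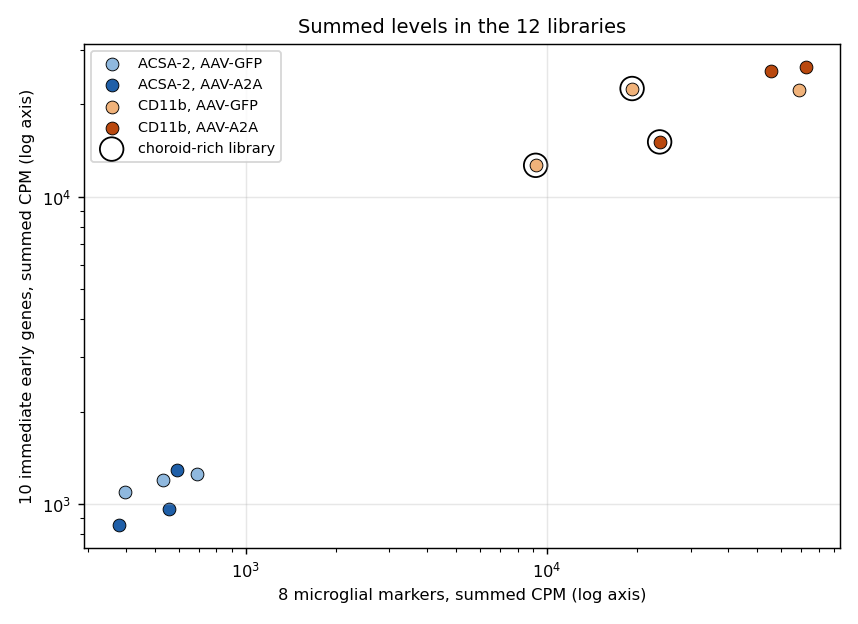
Summed level of the 10 immediate early genes against the summed level of 8 microglial markers in each of the 12 libraries, both in CPM on log axes, with a ring around the 3 choroid-rich libraries. The CD11b libraries spread 7.9-fold along the microglial axis and 2.09-fold along the other, and the ACSA-2 libraries form a separate group at 854 to 1296 CPM.

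In the ACSA-2 libraries the microglial markers summed to 397 to 688 CPM with AAV-GFP and 379 to 594 CPM with AAV-A2A, none of the 8 being at 0. The fraction difference of the immediate early genes was smaller than that of microglial markers for most of them, as 8 of the 10 had a log2 FC below the lowest of the 8 markers (5.13). The exceptions were Fosb and Atf3. Of the 3 CD11b control libraries behind these values, GFP-2328 and GFP-2329 were choroid-rich and poor in microglial RNA. Without the choroid-rich libraries, which leaves GFP-2331 as the only CD11b control, the median log2 FC of the 8 markers was 6.82. Fosb had 5.16 and Atf3 5.51 in that fit. The part of microglia carried into the ACSA-2 fraction was not tested. Of 5 markers of monocytes and neutrophils, which also carry CD11b, 4 were higher in the CD11b fraction of AAV-GFP controls, led by Ngp, at 0 counts in the ACSA-2 libraries and 65.9 ± 50.7 CPM (SD, n = 3) in CD11b, and their part in the difference was not tested either.

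Levels of different genes were compared per kilobase of exon. In the ACSA-2 fraction of AAV-GFP mice the order by the median of 3 libraries was Dusp1 (122 CPM per kb), Fos (80.1), Ier2 (46.1), Egr1 (44.5), Jun and Junb (both 39.1), Jund (21.4), Atf3 (9.28), Nr4a1 (8.02) and Fosb (0.231). The neighbours from Ier2 to Junb overlapped, as did Atf3 and Nr4a1, and the other neighbours did not. With AAV-A2A the order was Dusp1 (81.4 CPM per kb), Fos (77.7), Ier2 (62.8), Junb (57.0), Jun (51.4), Jund (26.6), Atf3 (13.8), Egr1 (12.8), Nr4a1 (1.59) and Fosb (0.325). The median of Egr1 was thus below that of Jund, though their ranges overlapped (10.5 to 23.4 and 20.4 to 26.8 CPM per kb). There Dusp1 and Fos overlapped, as did the neighbours from Ier2 to Jun and Atf3 with Egr1. In the CD11b fraction the order by the median of all 6 libraries was Fos (2053 CPM per kb), Junb (1518), Jun (1240), Ier2 (997), Dusp1 (937), Egr1 (863), Atf3 (434), Jund (93.4), Nr4a1 (35.8) and Fosb (9.46). There the neighbours from Fos to Atf3 overlapped, and Jund, Nr4a1 and Fosb were each separate from the gene above. Dusp1 thus had the highest median in the ACSA-2 fraction, apart from Fos only with AAV-GFP, and Fos and Junb had the highest medians in the CD11b fraction, within their spread.

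The lists of related genes were less uniform than the 10. For these and the following lists, 15.2% of all 18995 tested genes were called higher in CD11b and 2365 genes were called lower. Of 31 tested genes of a list of other immediate early genes, 14 were higher, 0 lower and the median log2 FC was 1.96. The 6 with the smallest adjusted p were Sgk1, a kinase induced by stress and hormones (48.4-fold), Btg2, an antiproliferative gene (20.7-fold), Plk3 (19.7-fold), Ier5 (17.8-fold), Ier3 (12.6-fold) and Klf2, a zinc finger transcription factor (9.59-fold). Of the same list, Npas4 had 1 count over the 3 libraries of each AAV-GFP group and 0 in the AAV-A2A libraries and was not tested, and Arc was at 0.704 ± 0.50 CPM (SD, n = 3) in ACSA-2 and 7.01 ± 7.11 CPM in CD11b of AAV-GFP mice (adjusted p = 0.138 by edgeR).

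Of 24 tested genes of a list of transcripts known from cell isolation, 17 were higher in CD11b and 0 lower, with a median log2 FC of 3.49. Examples were the chemokines Ccl4 (149-fold) and Ccl3 (45.0-fold), the cytokine Il1b (57.3-fold), Rgs1, a regulator of G protein signalling (493-fold, on 0.311 ± 0.447 CPM in ACSA-2), Zfp36, which destabilises AU-rich transcripts (39.2-fold), and the Ier5 named above. Ccl3, Ccl4, Il1b and Rgs1 are also genes of myeloid cells. The most abundant of the list, the endoplasmic reticulum chaperone Hspa5, was 4.50-fold higher. For the AP-1 partners and inhibitors 9 of 15 were higher (among them Batf3 11.6-fold, Maf 12.6-fold, Mafk 5.08-fold, Mafg 4.32-fold and Atf4 2.53-fold) and 0 lower.

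Upstream of the immediate early genes the fractions differed in both directions, as they did over all 18995 tested genes (2881 called higher, 2365 lower). Of 25 regulators that signal to them, 9 were higher in CD11b, among them the kinases Rps6ka1 (18.1-fold) and Rps6ka3 (9.98-fold), and 5 were lower, among them the CREB coactivators Crtc3 (5.22-fold lower) and Crtc1 (2.47-fold lower) and the SRF coactivator Mrtfb (2.97-fold lower). Of 15 feedback regulators 5 were higher, with Socs3 (61.1-fold), Zfp36 (39.2-fold), Dusp6 (7.31-fold) and Nfkbia (4.34-fold), and 4 lower, with Spry2 (17.9-fold lower) and Zfp36l1 (6.10-fold lower). Without the choroid-rich libraries 10 upstream regulators were higher and 3 lower, and 5 feedback regulators higher and 1 lower, so that fewer genes of both lists were called lower. In that fit 15 of 31 other immediate early genes were higher and 1 lower, 18 of 24 isolation genes higher and 3 lower, and 7 of 15 AP-1 partners and inhibitors higher and 0 lower. The 14 calls among the upstream regulators became 8 without any one of GFP-303, GFP-306 or GFP-2331.

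The second comparison asked whether the astrocytic vector changed these genes in the ACSA-2 fraction, AAV-A2A against AAV-GFP. Egr1 fell and was the one gene of the 10 that passed the threshold, where 3.19% of all 16451 tested genes were called lower. It was at 280, 170 and 200 CPM (mean 217 ± 57.2, SD, n = 3) in AAV-GFP libraries and at 105, 47.2 and 57.6 CPM (69.9 ± 30.8) in AAV-A2A libraries, 3.05-fold lower and without overlap (log2 FC -1.61, SE 0.31, adjusted p = 0.0213 by edgeR). Egr1 spans chr18:34859823-34864984 of GRCm38 on the plus strand, in 2 exons. The call held with DESeq2 (adjusted p = 3.15e-05) and with limma-voom (adjusted p = 0.00967). It was lost when all 12 libraries shared one fit (log2 FC -1.63, adjusted p = 0.109), and also when any one of GFP-303 (-1.40, adjusted p = 0.0873), GFP-306 (-1.75, 0.053), GFP-307 (-1.67, 0.061), A2A-310 (-1.39, 0.0899) or A2A-313 (-1.50, 0.102) was left out by the same test. The fall kept its direction in each of these fits.

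The other 9 genes did not pass, and they did not point one way. For Dusp1, the phosphatase, the AAV-A2A libraries at 352, 269 and 232 CPM lay just below the AAV-GFP libraries at 359, 404 and 417 CPM (log2 FC -0.44, SE 0.19, adjusted p = 0.349). Thus 2 of 10 genes, Egr1 and Dusp1, had no overlap between the vectors, as had 19.4% of all tested genes. Nr4a1 was very uneven with AAV-A2A, at 35.5 CPM in A2A-309 and 5.26 and 5.57 CPM in A2A-310 and A2A-313, against 28.2, 32.0 and 12.9 CPM (log2 FC -0.64, SE 0.69, adjusted p = 0.806), and without A2A-309 its log2 FC was -2.13 (adjusted p = 0.0587). Fos, at 322, 183 and 165 CPM with AAV-A2A against 188, 163 and 216 CPM, had a log2 FC of 0.27 (SE 0.25, adjusted p = 0.772) that became -0.08 without A2A-309.

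Jun, Junb, Jund, Fosb, Atf3 and Ier2 had log2 FC values from 0.15 (Jund) to 0.63 (Atf3), with SE from 0.18 to 0.87 and adjusted p from 0.447 to 0.901. Their libraries overlapped between the vectors. Jun was nearly level among the AAV-A2A libraries, at 163, 168 and 164 CPM, within the range of the AAV-GFP libraries at 119, 125 and 165 CPM, save that 168 CPM was just above it. Over the 10 genes the median log2 FC was 0.29, against 0.02 over all tested genes. By sign, Dusp1 and Nr4a1 lay on the same side as Egr1 and the other 7 on the opposite side, and no test compared the genes with one another.

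**Figure D4:**
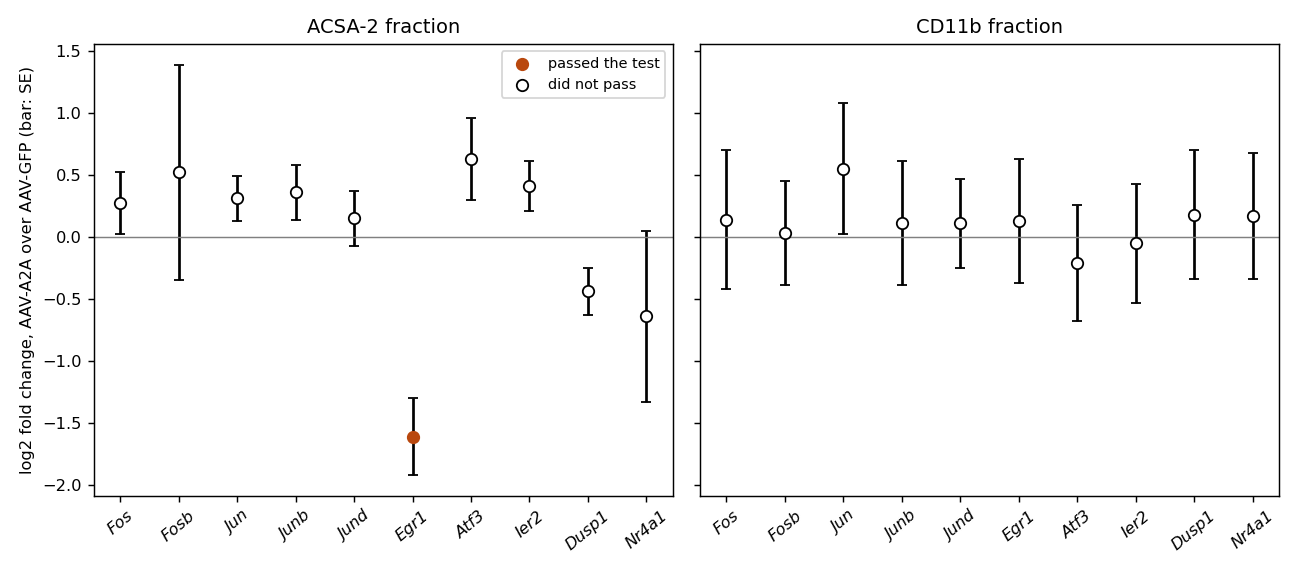
Log2 FC of AAV-A2A over AAV-GFP for the 10 genes in the ACSA-2 (left) and CD11b (right) fraction, with the SE as bar and filled where the gene passed the test. Egr1 in the ACSA-2 fraction is the one filled point, at -1.61, and in the CD11b fraction the values lie between -0.21 and 0.55.

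Sums of other cells' markers, set beside these values, overlapped between the vectors in the ACSA-2 fraction. The 12 neuronal markers summed to 95.9 to 141 CPM with AAV-GFP and 96.2 to 117 CPM with AAV-A2A, with Ppp3ca as the most abundant, and the microglial sums given above overlapped too. The 9 endothelial and pericyte markers summed to 1217 to 1250 CPM with AAV-GFP and 788 to 1274 CPM with AAV-A2A, with Kcnj8 as the most abundant. Of these 9 only Flt1, an endothelial receptor, passed, and it was lower (log2 FC -1.66, adjusted p = 0.00523 by edgeR). It had the lowest log2 FC of the list, whose median was -0.49 and highest 0.35, with 3 of the 9 above 0. Oligodendrocyte markers (led by Cnp) summed to 347 to 401 and 332 to 557 CPM, erythrocyte markers (Hbb-bs) to 981 to 1433 and 600 to 1335 CPM, choroid plexus and ependyma markers (Ttr) to 1260 to 1553 and 1119 to 2068 CPM, border macrophage markers (Cbr2) to 57.0 to 84.0 and 49.0 to 89.9 CPM, monocyte and neutrophil markers (S100a9) to 0.12 to 3.74 and 0.168 to 0.542 CPM, and astrocyte markers (Aldoc) to 23051 to 27226 and 22925 to 36363 CPM. The part of endothelial cells in the Egr1 difference was not tested.

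Within the pathway, called genes of the ACSA-2 fraction were lower with AAV-A2A, as were 524 of the 553 genes called in all. Those 524 genes are 3.19% of the 16451 tested, the share to set beside the counts per list. Of 28 other immediate early genes 3 fell, Per1, a clock gene inducible by cAMP (from 33.3 ± 6.68 to 9.54 ± 2.56 CPM, 3.43-fold, adjusted p = 0.011), Rhob, a small GTPase (from 206 ± 34.7 to 59.9 ± 22.9 CPM, 3.38-fold, adjusted p = 0.00927), and Myc (from 35.0 ± 8.17 to 11.8 ± 3.77 CPM, 2.91-fold, adjusted p = 0.0307), all SD with n = 3 and by edgeR. Of 25 upstream regulators 4 fell, among them the CREB coactivators Crtc3 (3.55-fold) and Crtc1 (3.40-fold) and the SRF coactivator Mrtfb (3.05-fold), with a list median log2 FC of -0.67. Of 15 feedback regulators Spry2, an inhibitor of growth factor signalling (5.96-fold), and Zfp36l1 (3.85-fold) fell, with a median of -1.02. Rhob was also the one gene of 24 in the isolation list that passed, and that list's median was 0.30. Some of these calls rested on single libraries. With all 12 libraries in one fit the calls were 1 of the 3 other immediate early genes (Per1), 0 of the isolation list and 0 of the feedback regulators. Without GFP-306 they were 0 in each of these 3 lists, and without A2A-313 they were 1 (Per1), 0 and 0. The feedback regulators also had 0 calls without GFP-303 or GFP-307 and 1 without A2A-310, and Myc lost its call when any one of the 6 libraries was left out (adjusted p up to 0.41 over its alternatives, by edgeR in those fits). Crtc1, Crtc3 and Mrtfb passed in each of 14 alternatives, and Per1, Rhob, Myc, Crtc1, Crtc3, Mrtfb, Spry2 and Zfp36l1 kept their direction in each. Of 15 AP-1 partners and inhibitors 0 passed by edgeR or by DESeq2 and 0 had an unadjusted p under 0.05, the most abundant, Atf4, having a log2 FC of 0.03.

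The third comparison was the same contrast in the CD11b fraction. None of the 10 genes passed, by edgeR, DESeq2 or limma-voom, and 0 had an unadjusted p under 0.05. Over all 16949 tested genes 0.0% were called by edgeR, 2704 had an unadjusted p under 0.05 and DESeq2 called 502. Fos was at 2633, 4850 and 4963 CPM with AAV-GFP and 6523, 4805 and 2795 CPM with AAV-A2A (log2 FC 0.14, SE 0.56). Egr1 was at 2589, 4152 and 3656 CPM with AAV-GFP and 4081, 4936 and 2668 CPM with AAV-A2A (log2 FC 0.13, SE 0.50). Each of the 2 groups held a library low in both genes, choroid-rich in both cases (GFP-2328 and A2A-2347). The remaining choroid-rich library, GFP-2329, was not low, with Fos at 4850 and Egr1 at 4152 CPM. The vectors overlapped for each of the 10 genes, where 22.4% of all tested genes did not overlap.

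By the main test the widest difference among the 10 was that of Jun, at 1849, 3591 and 4112 CPM with AAV-GFP and 4476, 5995 and 3797 CPM with AAV-A2A (log2 FC 0.55, SE 0.53, adjusted p = 0.632 by edgeR). The other 9 ran from -0.21 (Atf3) to 0.18 (Dusp1), with SE from 0.36 to 0.56. The spread between these libraries limits what could be detected, as Adora2a with a log2 FC of 2.20 did not pass in this comparison either. Several of these small values changed sign under other settings, including without the choroid-rich libraries. With length and GC trends removed Jund moved from 0.11 to 1.14 (adjusted p = 0.439) and Junb from 0.11 to 0.65 (adjusted p = 0.634, both by edgeR), wider than Jun at 0.62. Without the choroid-rich libraries Jund had a log2 FC of -0.12, Atf3 of 0.12 and Ier2 of 0.06, and 0 of the 10 passed.

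Marker sums of some other cells did not overlap between the vectors in the CD11b fraction, where 22.4% of all tested genes did not overlap. The 5 erythrocyte markers, led by Hbb-bs, summed to 1016 to 5981 CPM with AAV-GFP and 56.7 to 253 CPM with AAV-A2A, and the 12 neuronal markers to 132 to 289 and 67.2 to 131 CPM, with Gad2 at 0 in the AAV-A2A libraries. Ppp3ca, the most abundant neuronal marker, was at 71.5 ± 26.9 and 94.1 ± 28.6 CPM (SD, n = 3) and thus did not share the lower sum. None of these markers passed the test by edgeR, 5 of 5 erythrocyte and 6 of 11 tested neuronal markers having an unadjusted p under 0.05. The other sums overlapped, at 881 to 1678 and 537 to 1082 CPM for endothelial cells and pericytes (Cldn5), 144 to 276 and 197 to 282 CPM for oligodendrocytes (Cnp), 323 to 361 and 192 to 511 CPM for astrocytes (Slc1a3), 44.9 to 195 and 137 to 207 CPM for border macrophages (F13a1) and 93.8 to 427 and 83.6 to 367 CPM for monocytes and neutrophils (Ngp). The part of these cells in the values of the 10 genes was not tested.

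In the CD11b fraction 0 genes of the related lists passed by edgeR, with an unadjusted p under 0.05 for 3 of 30 other immediate early genes, 9 of 25 upstream regulators, 1 of 14 AP-1 partners and inhibitors, 3 of 15 feedback regulators and 3 of 24 isolation genes. DESeq2 called 1 upstream regulator and 1 isolation gene. The most abundant gene had a log2 FC of 0.49 among the other immediate early genes (Btg2), 1.24 among the upstream regulators (Rps6ka1), 0.55 among the feedback regulators (Zfp36) and -0.58 among the isolation genes (Hspa5).

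Whether the vector acted differently in the fractions was tested as an interaction over the 12 libraries. None of the 10 passed by edgeR, where 0.39% of 18995 tested genes were called, and Egr1 was the one with an unadjusted p under 0.05. Its vector effect in CD11b exceeded that in ACSA-2 by 1.80 on the log2 scale (SE 0.56, adjusted p = 0.126 by edgeR). DESeq2 called it (difference 1.75, adjusted p = 0.0306) and limma-voom did not (adjusted p = 0.104), and over the other alternatives the adjusted p ran up to 0.344. The fall of Egr1 in the ACSA-2 fraction was therefore not shown by the main test to differ from its vector effect in the CD11b fraction. For the other 9 genes the difference ran from -0.77 (Atf3) to 0.84 (Nr4a1), with SE from 0.43 to 0.99.

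Deviations of the replicates from their group were compared across the 10 genes. After the mean of each group was removed from the log2 CPM, the 45 pairs of genes had a median Pearson r of 0.62 over the 12 libraries, from -0.39 (Jun and Nr4a1) to 0.94 (Fos and Dusp1). The median was 0.43 over the 6 ACSA-2 libraries, with 9 pairs below 0, and 0.80 over the 6 CD11b libraries, with 11 pairs below 0. Over the 12 libraries Ier2 with Dusp1 (0.92), Jun with Jund (0.89) and Fos with Junb (0.87) came next. Fosb and Nr4a1 stood apart, with a median r of 0.15 and 0.05 to the other 9 genes, against 0.62 to 0.78 for the remaining 8. The points share their library's depth and composition, so these values are descriptive. The CD11b points include the choroid-rich libraries, whose part in the pattern was not tested. The highest libraries of their groups by the mean log2 CPM of the 10 genes were A2A-309 in the ACSA-2 and GFP-2329 in the CD11b fraction, at 0.49 and 0.34 above the group mean.

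**Figure D5:**
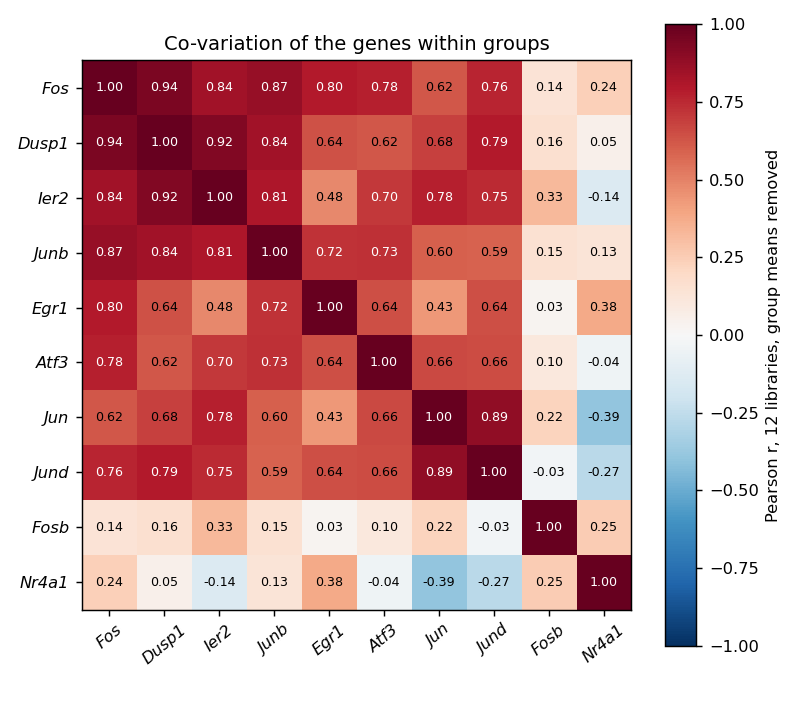
Pearson r between each pair of the 10 genes over the 12 libraries after removal of the mean of each fraction and vector, on a colour scale from -1 to 1. Fos, Dusp1, Ier2 and Junb form the most alike block, and Fosb and Nr4a1 correlate weakly with most others.

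Among 9571 other genes with a mean of at least 5 CPM in both fractions, those most like the mean of the 10 in this measure were the chemokine Ccl3 (r = 0.943), Klf2 (0.914), Fam43a (0.887), Btg2 (0.886) and the zinc finger gene Zfp202 (0.859), over 12 libraries. Btg2 is listed among the other immediate early genes, Ccl3 among the isolation genes and Klf2 in both lists, which share some genes. Ccl3 had a mean of 6.72 CPM in the ACSA-2 and 192 CPM in the CD11b libraries, and Btg2 81.6 and 1884 CPM.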

How the data were processed

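RNA of both sorted fractions was converted to full-length cDNA, amplified by PCR, cut by tagmentation and read from one end. Per the methods and the submitters' processing notes, the authors trimmed reads with cutadapt 1.10, aligned them to mm10 (GRCm38) with STAR 2.5.3 and deposited raw counts of uniquely aligned, unambiguous reads per Ensembl gene from HTSeq 0.6.1p1, as one table per fraction without normalization. The strand setting is not given in the sources used here. Reads carry no molecular identifiers. Each table lists only genes with at least 1 count, so that a gene absent from one table was taken as 0 there, and 25 unnamed empty columns were not used.

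Groups came from the sample labels. The members, gene lists and tests were chosen with earlier results of these data known. AAV-A2A was compared with AAV-GFP within each fraction, and the fractions and the interaction in one fit of 12 libraries, by edgeR 4.0.16 in R 4.3.3 (quasi-likelihood fit after TMM scaling and filterByExpr) and Benjamini-Hochberg adjustment over all tested genes. A call needed an adjusted p below 0.05 together with a log2 FC above 0.32 or below -0.32. The SE printed with an edgeR log2 FC is its absolute value divided by the square root of the test's F statistic. The tests were tried on simulated counts first. A legend of the study counts the replicates of its astrocyte data as animals. The labels only number the libraries and nothing in the sources used here says the same of the CD11b data, where p values measure the spread between samples, which may be technical. All 10 genes passed the filter on low counts in each comparison. CPM values use TMM factors over the 12 libraries, and per-kilobase values use the merged exons of each gene. Exon lengths, overlaps and positions are from the GENCODE annotation of GRCm38, promoters from RefSeq (GRCm38.p6).

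Alternatives were DESeq2 1.42.0, limma-voom (limma 3.58.1), other scalings and filters, removal of length and GC trends, other sets of libraries and each library left out. Leaving out the 3 choroid-rich libraries was chosen after seeing the data. Named were the 10 genes, up to 6 called genes with the smallest adjusted p per pathway list and comparison, or the most abundant gene of the list where none was called, the most abundant gene of each list of other cells, the 5 genes most like the mean of the 10, and Adora2a. Arc, Npas4, Flt1 and Gad2 were named after their values were seen. Some genes that this rule names are not reported here.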

Additional observations from a re-analysis of the deposited data

How the results depend on the processing

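No paired analysis was possible because the labels give the groups no shared replicate numbers. The count of the 10 genes called in the ACSA-2 vector comparison was 1 and became 0 with all 12 libraries in one fit, and 0 to 1 when 1 library was left out. In the CD11b vector comparison it was 0 in each alternative. Between the fractions it was 10, with 9 where no filter was used or the choroid-rich libraries were left out and 9 to 10 with 1 library left out. For the interaction it was 0, and 1 with DESeq2 (Egr1), and 0 with each library left out.

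Small log2 FC values changed sign, none past the threshold, and the cause was not tested. In the CD11b vector comparison Fosb (0.03) became -0.0024 with RLE size factors, -0.09 with total counts, -0.06 with at least 10 counts in every library and -0.43 with length and GC trends removed. With those trends removed Egr1 became -0.09, Atf3 0.23 and Ier2 0.70, Junb became -0.02 with total counts, and without the choroid-rich libraries Jund became -0.12, Atf3 0.12 and Ier2 0.06. For the interaction Jund (0.02) became -0.04 with DESeq2, -0.06 with RLE, -0.15 with total counts, -0.05 with at least 10 counts and -0.21 without the choroid-rich libraries, where Fosb became 0.04. With trends removed Fos became 0.43, Junb 0.39 and Ier2 0.37.

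With 1 library left out, log2 FC in the CD11b vector comparison ran from -0.13 to 0.39 for Fos, -0.25 to 0.37 for Fosb, -0.09 to 0.30 for Junb, -0.11 to 0.35 for Jund, -0.05 to 0.31 for Egr1, -0.44 to 0.17 for Atf3, -0.26 to 0.20 for Ier2, -0.06 to 0.42 for Dusp1 and -0.15 to 0.49 for Nr4a1. It ran from -0.08 to 0.43 for Fos in the ACSA-2 comparison, and in the interaction from -0.36 to 0.30 for Fos, -0.40 to 0.03 for Junb and -0.23 to 0.30 for Jund. No other value of the 10 genes changed sign under these alternatives.

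Scaling by total counts moved the median of all genes from -0.05 to -0.174 in the CD11b vector comparison and from 0.132 to 0.253 between the fractions, and the differences of the 10 genes there are relative to it. All called genes numbered 553 in the ACSA-2 vector comparison, 1277 with DESeq2 and 146 with 12 libraries, and 74 in the interaction, 1726 with DESeq2 and 0 with RLE. With 3 libraries a group, Fosb and Nr4a1 in the ACSA-2 fraction had the widest errors (SE 0.87 and 0.69).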
